A study of Mus musculus with 2 samples.

Results

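The genes described are 10 genes by which alveolar type 1 (AT1) cells are commonly recognised: Ager, Hopx, Rtkn2, Aqp5, Pdpn, Cav1, Emp2, Akap5, Spock2 and Scel. They were chosen by symbol, and each of the 10 symbols named a row of its own among the 31053 genes of both count matrices. AT1 cells are the thin, flat cells that line most of the gas-exchange surface of the lung. After injury they are replaced by alveolar type 2 (AT2) cells, the surfactant-producing cells of the same epithelium, which divide and pass through a transitional state with high keratin 8 (Krt8). The 10 genes encode proteins of different kinds, among them a receptor, a water channel, caveolar and tetraspan membrane proteins, intracellular regulators and a matrix proteoglycan, and several are also known from other cells that form thin sheets.

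The cells came from lungs of Pclaf WT and Pclaf KO mice aged 8 to 10 weeks, 1 week after bleomycin at 1.35 U/kg, a drug that injures the alveolar epithelium. Pclaf encodes a proliferation-associated partner of the replication clamp, and the KO mice came from an established model. Cells without the endothelial marker Cd31 and the leukocyte marker Cd45 but with the epithelial marker Epcam had been sorted, and each genotype gave 1 droplet library counted as unique molecular identifiers (UMIs). With 1 library per genotype there was no replicate and no test, so the intervals given here are 95% intervals that cover counting error only, and a difference between the libraries is not a difference between the genotypes.

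Depth differed between the libraries. The WT library had 30669 barcodes, at a median of 2105 UMIs, and the KO library 17172 barcodes, at a median of 5682 UMIs, against 16000 cells loaded per group, and they totalled 98171818 and 111267567 UMIs. The libraries shared 163 barcodes. After filtering, 30187 WT and 15637 KO cells were left, the WT number being above the 16000 cells loaded. Of these, 1140 WT and 10657 KO cells stayed in the epithelial clusters. Despite the gate the others included 5111 WT and 282 KO endothelial cells, which form the endothelial pool below, and 2720 and 66 B cell-like cells. T cell-like cells numbered 1906 and 115, and interstitial macrophage-like cells 1626 and 46. The pool includes a cluster of 529 WT and 31 KO cells that was given no class. Pclaf itself was counted at 172 UMIs per 1000000 UMIs of the class (CPM) in the 26 cycling epithelial-like cells of the WT library and at 145 CPM in the 187 of the KO library, a log2 ratio of -0.25 (-0.85 to 0.41), and the part of the gene that was deleted is not given in the sources used here, so these counts do not check the label. Cell classes were named from markers that did not include the 10 genes, and the 10 genes were also kept out of the clustering. The AT1-like class numbered 98 WT and 257 KO cells, and all 9 AT1 markers used for the name, such as Clic5, Igfbp2 and Col4a3, were highest there among 25 classes of at least 50 cells in the WT library and 17 in the KO library.

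All 10 genes are protein-coding, and in the GRCm38 assembly Ager lies at chr17:34597862-34600936, Aqp5 at chr15:99590782-99594829, Pdpn at chr4:143267431-143299564, Cav1 at chr6:17306335-17341452 and Emp2 at chr16:10281749-10313968. Hopx lies at chr5:77086988-77115121, Rtkn2 at chr10:67979570-68059740, Akap5 at chr12:76324891-76334153, Spock2 at chr10:60106219-60135198 and Scel at chr14:103513342-103612797. Exons of Hopx overlap those of Hopxos on the opposite strand, and exons of Rtkn2 those of Gm16212. The strand setting of the counting is not given in the sources used here, so reads of these pairs cannot be told apart.

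RefSeq promoter windows of 250 bases upstream of the start site (GRCm38.p6) were at hand for 9 of the 10 genes, all but Rtkn2. The windows below are those that held a searched motif, Scel and Pdpn, together with Ager, which was restricted to AT1-like cells, and Cav1, which was not. Each is written 5' to 3' on the strand of its gene, Pdpn on the minus strand and the others on the plus strand, and capitals mark matches.
Scel, chr14:103513091-103513340: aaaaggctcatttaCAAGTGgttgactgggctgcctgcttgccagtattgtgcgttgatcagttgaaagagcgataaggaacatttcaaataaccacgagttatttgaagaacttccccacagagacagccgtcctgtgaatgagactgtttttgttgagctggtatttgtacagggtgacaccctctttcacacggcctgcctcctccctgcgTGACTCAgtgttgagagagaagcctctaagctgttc
Pdpn, chr4:143299565-143299814: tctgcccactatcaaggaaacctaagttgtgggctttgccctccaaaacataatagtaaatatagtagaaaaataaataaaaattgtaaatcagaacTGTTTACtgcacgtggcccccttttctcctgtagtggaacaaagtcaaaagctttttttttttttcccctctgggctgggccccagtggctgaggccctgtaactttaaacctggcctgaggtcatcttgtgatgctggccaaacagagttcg
Ager, chr17:34597600-34597849: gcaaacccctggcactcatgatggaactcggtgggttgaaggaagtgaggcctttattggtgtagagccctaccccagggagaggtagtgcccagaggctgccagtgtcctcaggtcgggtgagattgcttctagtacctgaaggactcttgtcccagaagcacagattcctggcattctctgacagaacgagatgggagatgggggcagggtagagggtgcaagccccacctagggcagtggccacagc
Cav1, chr6:17306085-17306334: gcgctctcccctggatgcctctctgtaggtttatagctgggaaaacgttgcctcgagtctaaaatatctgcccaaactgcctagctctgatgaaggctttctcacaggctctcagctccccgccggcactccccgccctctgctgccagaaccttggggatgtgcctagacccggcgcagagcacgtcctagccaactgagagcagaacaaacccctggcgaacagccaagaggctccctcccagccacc
The motifs were searched on both strands and do not overlap one another in these windows. GGAATG, bound by TEAD factors, was found in 0 of the 9 genes and in 12.6% of 32817 promoter windows. CACTTG, bound by NKX2-1, was found upstream of Scel, beginning 236 bases before the start site and read there on the other strand, and in 11.6% of windows. TGTTTAC, bound by FOXA factors, was found 153 bases upstream of Pdpn and in 3.16% of windows. TGANTCA, bound by AP-1, was found 36 bases upstream of Scel and in 6.75% of windows. A match is a run of letters, not evidence of binding.

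Among the 10 genes, 6 were restricted to AT1-like cells in both libraries, that is, at least 4 times as high there as in every other class of at least 50 cells. These were Ager, Hopx, Rtkn2, Akap5, Spock2 and Scel. Clusters left without a class, whether removed or unnamed, were outside this rule. Those of the epithelium and the unnamed endothelial cluster were set against AT1-like cells, and the others were not. Against 1 of those compared, described below, Hopx in WT and Akap5 in both libraries missed 4-fold. The same rule was met by 0.913% of 4381 genes with at least 10 UMIs in WT AT1-like cells and by 0.798% of 9144 in KO. The class with the next highest level differed between them: Krt8+ transitional-like cells for Ager, Rtkn2 and Akap5, mesothelial-like cells for Spock2, and different classes by library for Hopx and Scel. For Hopx in KO and for Scel in both libraries the next class was not resolved.

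Ager, the receptor for advanced glycation end products, was counted at 12480 CPM (12042 to 12930) in WT AT1-like cells and at 15972 CPM (15756 to 16189) in KO. The next class, Krt8+ transitional-like, held 1224 and 1966 CPM, so AT1-like cells were 10.2-fold higher in WT and 8.13-fold in KO. In WT the interval of the transitional-like class overlapped that of activated AT2-like cells at 995 CPM, so these neighbours in the order were not separated.

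The intracellular regulators were Hopx, Rtkn2 and Akap5. Hopx, an atypical homeodomain protein that does not bind DNA, was at 4524 CPM in WT and 5011 in KO AT1-like cells. In WT its next class was Car4+ aerocyte endothelial-like cells, the capillary endothelium apposed to AT1 cells, at 558 CPM (8.10-fold below), and in KO ciliated-like cells at 384 CPM (13.04-fold below). In KO the interval of ciliated-like cells overlapped that of transitional-like cells, so these neighbours in the order were not separated. The KO library held only 38 aerocyte-like cells, too few for the order, and the WT ciliated-like class was at 411 CPM. Rtkn2 had the largest separation of the 10 in both libraries, 30.1-fold in WT and 28.3-fold in KO over the transitional-like class, from 1844 and 2152 CPM in AT1-like cells. Akap5, an anchoring protein for protein kinase A, was at 918 and 1026 CPM in AT1-like cells and lay nearest to the limit, 5.10-fold (4.22 to 6.16) above transitional-like cells in WT and 5.66-fold (5.26 to 6.10) in KO. Over the other settings this ratio ran from log2 1.85 to 3.32 in WT and from 2.28 to 2.76 in KO. At the lowest WT value Akap5 missed the limit of 4-fold.

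Spock2, a secreted proteoglycan of the extracellular matrix, was at 1293 CPM in WT and 967 in KO AT1-like cells. Mesothelial-like cells, the sheet that covers the lung, came next at 222 and 143 CPM, 5.82-fold and 6.78-fold lower. Scel encodes sciellin, a protein of cell envelopes in stratified epithelia, and was at 347 CPM (277 to 429) and 449 CPM (413 to 486). Behind it, the transitional-like and mesothelial-like classes had overlapping intervals in both libraries, at 49.4 and 48.9 CPM in WT and at 28.5 and 32.5 CPM in KO, so which of them came next was not resolved.

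**Figure D1:**
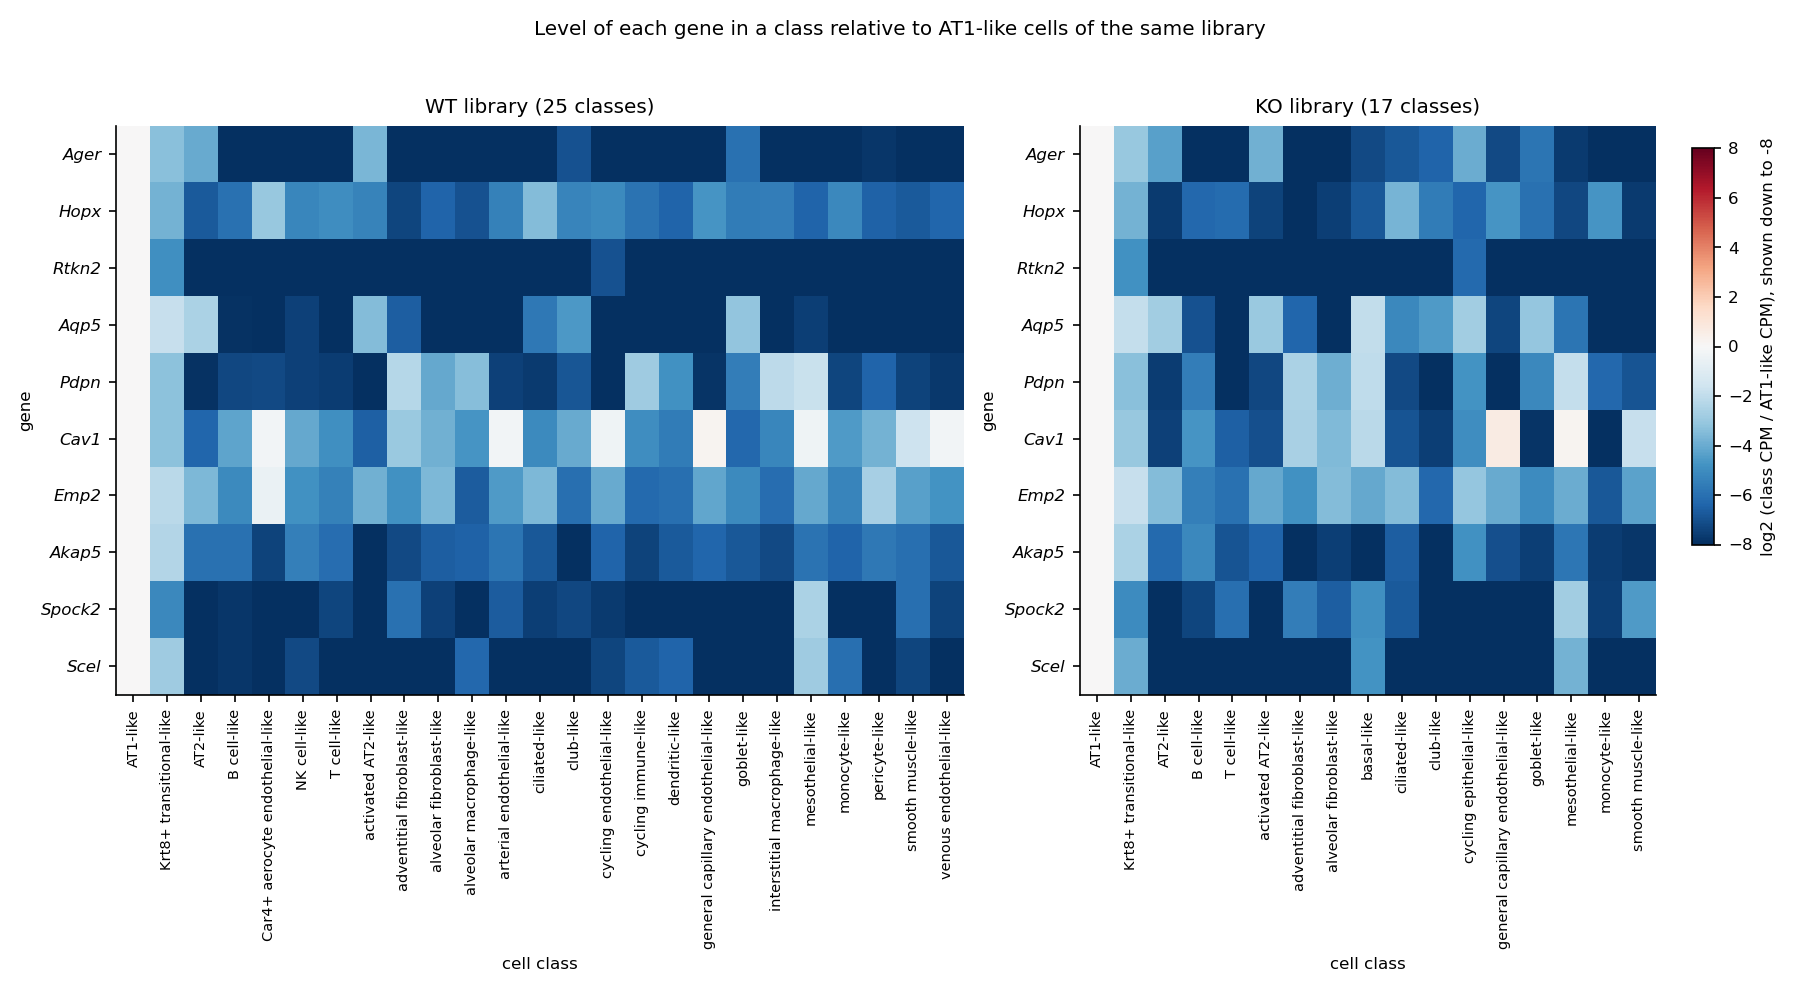
Colour gives the log2 ratio of the CPM of each of the 10 genes (rows) in a cell class (columns) over its CPM in AT1-like cells of the same library, for the 25 WT and 17 KO classes of at least 50 cells, shown down to -8. Ager, Rtkn2 and Scel are dark in nearly all other classes, whereas Cav1 is near or above 0 in the endothelial-like and mesothelial-like classes.

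The other 4 genes, Aqp5, Pdpn, Emp2 and Cav1, missed the limit. The intervals of Aqp5 in WT and of Pdpn in both libraries included 4-fold, so counting error alone did not separate these from the limit. Aqp5, a water channel of the apical membrane, was at 1563 CPM in WT and 2223 in KO AT1-like cells and just outside the rule. It was 3.63-fold (3.17 to 4.14) and 3.67-fold (3.51 to 3.84) over transitional-like cells. In the KO library basal-like cells held 575 CPM of Aqp5, with an interval overlapping that of transitional-like cells at 606, and in the WT library goblet-like cells held 174 CPM. Its levels outside AT1-like cells were thus mostly in other epithelium, and in endothelial cells it was at 3.48 CPM in WT and 13.2 in KO.

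Pdpn, a mucin-type glycoprotein known from lymphatic vessels, mesothelium and fibroblasts, was at 959 CPM in WT and 804 in KO AT1-like cells, 3.45-fold (2.84 to 4.18) and 3.71-fold (3.22 to 4.29) over mesothelial-like cells. In WT, interstitial macrophage-like cells at 222 CPM and adventitial fibroblast-like cells at 200 CPM followed, both above the 97.9 CPM of transitional-like cells. In KO, basal-like cells held 198 CPM and adventitial fibroblast-like cells 139 CPM, again above transitional-like cells at 80.9.

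Cav1, the coat protein of caveolae, was the 1 of the 10 genes shared with endothelium, by the rule that the pooled endothelial cells hold at least 25% of the AT1-like level. The pooled endothelial level was 1404 CPM in WT and 1449 in KO against 1334 and 1058 CPM in AT1-like cells, or 105% and 137%. Sharing of this kind was the usual state, met by 86.3% of genes in WT and 87.6% in KO, and the other 9 members were below 25%. General capillary endothelial-like cells were highest in both libraries, at 1546 and 1637 CPM, and AT1-like cells were 0.863 (0.771 to 0.963) and 0.647 (0.593 to 0.705) times as high. In WT the venous, aerocyte, arterial and cycling endothelial-like classes lay between 1069 and 1162 CPM. Mesothelial-like cells of the KO library, at 1217 CPM, were also above AT1-like cells. The summed level of 9 endothelial markers, Pecam1 and Cdh5 among them, was 677 CPM in WT and 249 CPM in KO AT1-like cells against 15052 and 14535 CPM in the endothelial pool, so the Cav1 level of AT1-like cells was of the same order as that of endothelium while these markers were far lower.

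Emp2, a tetraspan membrane protein, was high in 1 endothelial class. AT1-like cells held 3239 CPM in WT and 2913 in KO, and WT aerocyte-like cells held 2248 CPM, so AT1-like cells were only 1.44-fold (1.33 to 1.55) higher. In the endothelial pool Emp2 was at 443 and 517 CPM, 13.7% and 17.8% of AT1-like cells, and Hopx at 212 and 216 CPM, 4.68% and 4.31%. With each cell thinned to 1000 UMIs so that depths match, 86.4% of 507 aerocyte-like cells of the WT library had an Emp2 UMI and 13.1% of 3074 general capillary-like cells. In KO the shares were 86.1% of 36 and 10.3% of 145. Hopx had a similar but weaker split, in 40.0% of aerocyte-like and 15.4% of general capillary-like WT cells. For Cav1 the order was the other way round, 63.3% of aerocyte-like and 74.8% of general capillary-like cells. Against B cell-like cells as background, Hopx, Cav1 and Emp2 were on in the WT endothelial pool, 3 of 10 where 27.1% of genes were, and Cav1 and Emp2 in the KO pool, 2 of 10 where 7.31% were. The Hopx share was 17.2% in the WT and 15.4% in the KO pool, and the KO background had only 63 cells.

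Along the alveolar classes, all 10 genes were at least 2-fold higher in AT1-like than in AT2-like cells in both libraries, a difference shown by 25% of genes in WT and 27.9% in KO. The median log2 ratio was 6.53 in WT and 7.53 in KO, against 0.27 and 0.41 over all genes with at least 10 UMIs in the pair of classes. The ratios fell into a low and a high set. Aqp5, at log2 2.53 in WT and 2.80 in KO, Emp2 at 3.58 and 3.47, and Ager at 4.03 and 4.33 were the lowest. The other 7 were at 5.99 or more in WT and 6.24 or more in KO.

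In AT2-like cells Ager was at 765 CPM (724 to 807) in WT and 796 (788 to 805) in KO, Aqp5 at 271 and 320, and Emp2 at 271 and 262. Of the other 7, Hopx was at 42.2 and 24.9 CPM, Cav1 at 16.7 and 5.97, and Akap5 at 14.4 and 13.6. Rtkn2, Pdpn and Spock2 were between 1.96 and 4.16 CPM. Scel had 0 UMIs in the WT AT2-like class and 6 in the KO class of 5213 cells, which put WT AT1-like cells at least 200.15-fold higher, with 3 UMIs as the floor, and KO AT1-like cells at log2 11.48 (10.35 to 12.93).

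Whether a gene was on in a class was read from the share of cells with a UMI after each cell was thinned to 1000 UMIs, set against B cell-like cells, which should lack all 10 genes. A gene was called on where the interval of its share lay above the interval of the B cell-like share. In AT2-like cells Ager, Aqp5 and Emp2 were on in both libraries, 3 of 10, where 14.2% of genes were on in WT and 4.37% in KO. Ager had a UMI in 52.6% of WT and 50.1% of KO AT2-like cells, against 3.09% of 2587 and 4.76% of 63 B cell-like cells. Aqp5 was seen in 23.7% and 25.2% of AT2-like cells and Emp2 in 26.1% and 22.6%. Hopx and Cav1, at 3.34% and 3.04% of WT AT2-like cells, were below the B cell-like shares of 6.57% and 6.42% and were not called on. The summed endothelial markers were at 841 CPM in WT B cell-like cells and at 180 CPM in WT AT2-like cells. For these 2 genes, both also found in endothelium, the shares therefore do not tell whether the AT2-like level was background. Median depths before thinning were 5021 UMIs in WT AT2-like and 1863 in WT B cell-like cells, and 7002 and 2248 in KO, and without thinning Ager had a UMI in 90.3% and 92.2% of AT2-like cells and in 5.66% and 7.58% of B cell-like cells.

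**Figure D2:**
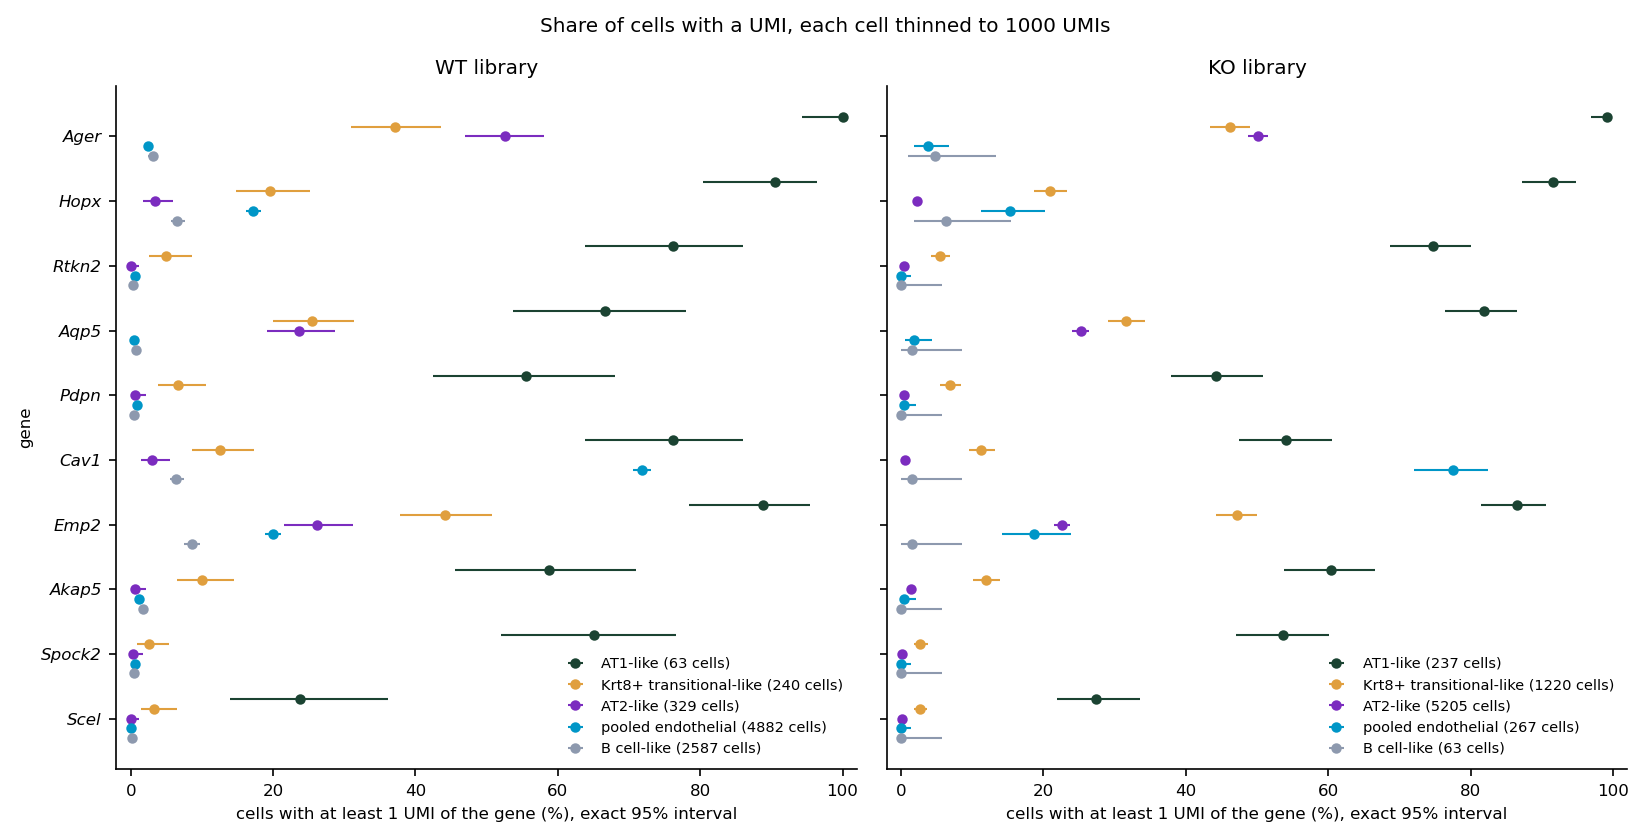
Points give the percentage of cells with at least 1 UMI of each gene, each cell thinned to 1000 UMIs, by class (colours) in the WT (left) and KO (right) library, with exact 95% intervals. AT1-like cells are furthest to the right for every gene except Cav1 in KO, where they are at 54.0% and endothelial cells at 77.5%, while in WT the Cav1 shares are 76.2% and 71.8%, and AT2-like cells stand clear of B cell-like cells for Ager, Aqp5 and Emp2.

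The Krt8+ transitional-like class, 241 WT and 1237 KO cells, lay between AT2-like and AT1-like cells for each of the 10 genes in both libraries. It was at least 2-fold above AT2-like cells for 8 of 10 genes in WT and 9 of 10 in KO, but 30.2% and 39% of all genes were too. Pdpn, Rtkn2, Spock2 and Akap5 were between log2 3.64 and 4.60 above AT2-like cells. The WT AT2-like class held only 7, 6, 4 and 25 UMIs of them. Over the other settings the lowest WT ratios were log2 2.79 for Pdpn, 2.91 for Rtkn2, 1.04 for Spock2 and 2.11 for Akap5. In KO the lowest were 3.31, 2.57, 2.59 and 2.55. Scel was at least 28.5-fold higher in WT and log2 7.50 (6.36 to 8.96) higher in KO. Aqp5 was least raised, at log2 0.67 (0.49 to 0.85) and 0.92 (0.87 to 0.97). Ager was at log2 0.68 in WT and 1.30 in KO, and the WT value was -0.02 when the 10 genes were kept in the clustering.

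In transitional-like cells the genes were still well below the AT1-like level. Spock2 was at 35.8 CPM in WT and 29.7 in KO, 36.1-fold and 32.6-fold below AT1-like cells, and Rtkn2 at 61.3 and 75.9 CPM. Hopx was at 323 and 367 CPM, 14.0-fold and 13.6-fold below. The smallest gaps were those of Aqp5 and, in KO, Emp2 at 3.55-fold. By thinned shares all 10 genes were on in WT transitional-like cells, where 19.2% of genes were, and 6 in KO, where 4.76% were. The 4 not on in KO were Rtkn2, Pdpn, Spock2 and Scel. Their shares were close to those of WT, for example 5.41% (4.21 to 6.83) for Rtkn2 in KO and 5.00% (2.61 to 8.57) in WT, but the 63 KO B cell-like cells left an exact upper limit of 5.69% on a share of 0.

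**Figure D3:**
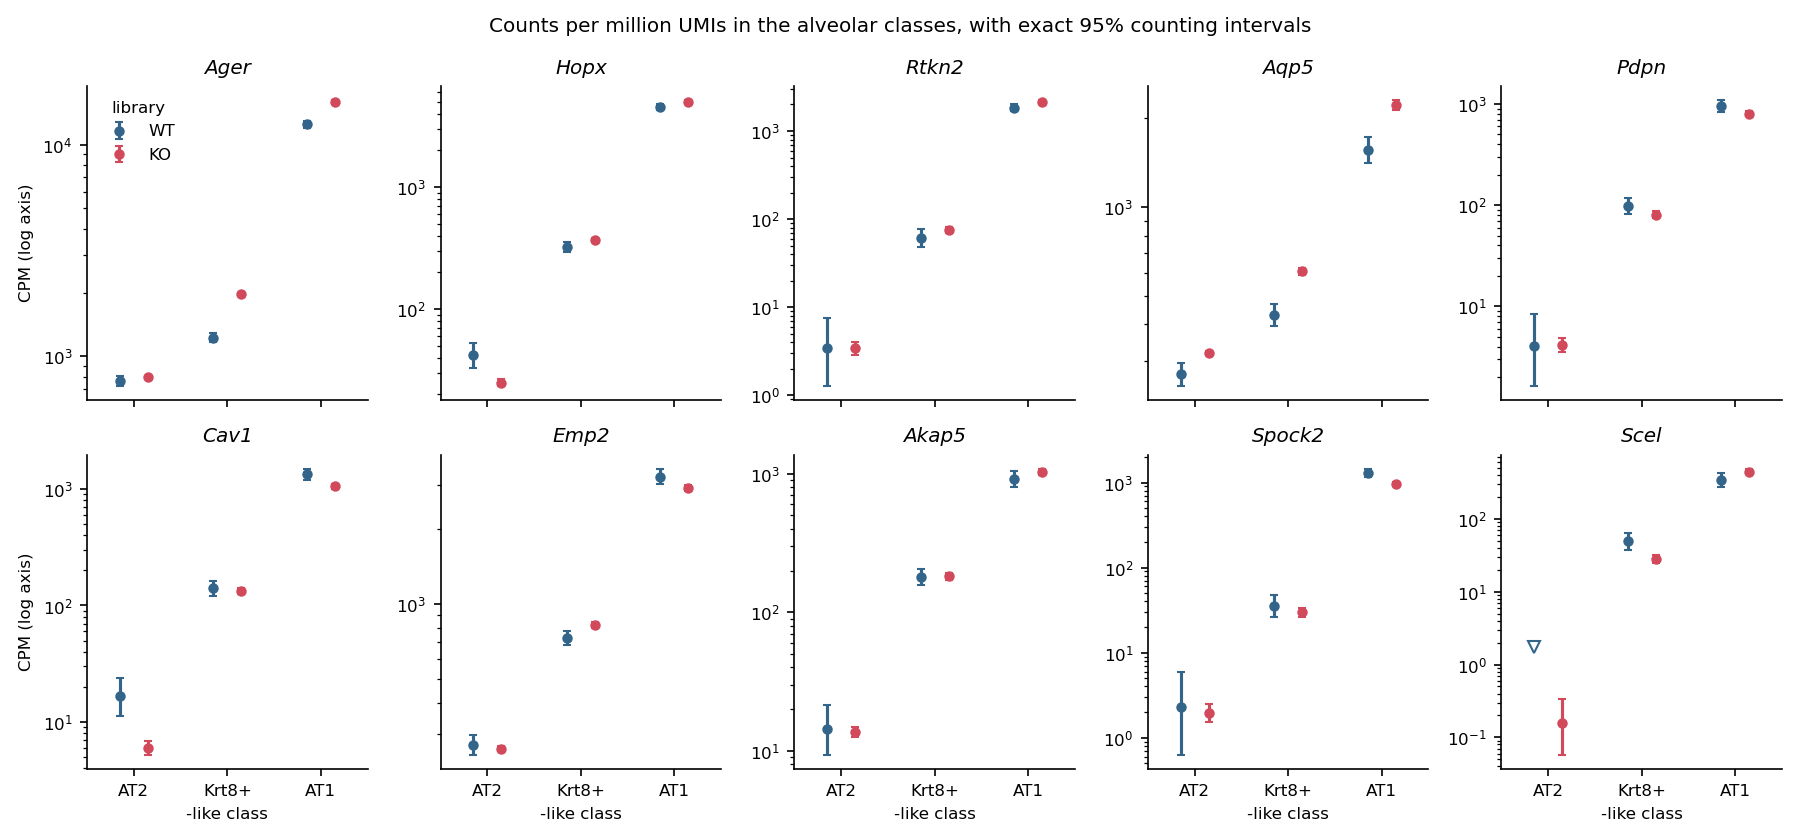
Each panel gives the CPM (log axis) of 1 gene in AT2-like, Krt8+ transitional-like and AT1-like cells of the WT and KO library, with exact 95% counting intervals. All 10 genes are highest in AT1-like cells, and the open triangle for Scel marks the level of 3 UMIs, since the WT AT2-like class had 0.

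Within classes the genes were spread over cells in different ways. In AT2-like cells the share of cells with an Ager UMI, 52.6% in WT and 50.1% in KO, was close to the 57.4% and 53.8% that an even spread of the UMIs over cells would give, and the variance of UMIs per cell was 1.30 and 1.21 times the mean. Aqp5 and Emp2 were also near even there, with ratios between 0.90 and 1.14. In transitional-like cells Ager was seen in 37.1% of WT and 46.2% of KO cells, where an even spread would give 70.7% and 85.5%. The variance was 5.37 and 6.13 times the mean, and the 10% of cells with most Ager held 63.0% and 54.5% of its thinned UMIs. Mean level and share of cells gave opposite orders of the AT2-like and transitional-like classes for Ager, and no order is read from the share. Hopx and Aqp5 were uneven in the transitional-like class to a lesser degree, at 1.86 to 2.72 times the mean. AT1-like cells were uneven too, at 3.59 in WT and 3.87 in KO for Ager, 1.94 and 2.55 for Hopx, and 1.40 and 1.93 for Aqp5. An uneven spread of these genes was therefore not particular to transitional-like cells.

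At 1000 UMIs per cell, AT1-like cells held on average 7.02 of the 10 genes in WT and 6.73 in KO, transitional-like cells 1.66 and 1.87, and AT2-like cells 1.10 and 1.03. Endothelial cells averaged 1.15 and 1.18, close to AT2-like cells, although their genes were Cav1, Emp2 and Hopx in place of Ager, Aqp5 and Emp2. At least 3 of the genes were found in 27.1% (21.6 to 33.2) of WT and 30.4% (27.8 to 33.1) of KO transitional-like cells, and in 5.47% and 4.75% of AT2-like cells. At least 5 were found in 15 of 240 WT and 95 of 1220 KO transitional-like cells, 6.25% (3.54 to 10.1) and 7.79% (6.35 to 9.44). Without thinning, at least 3 were found in 62.2% and 69.4% of transitional-like and in 56.8% and 66.7% of AT2-like cells. At 1000 UMIs none of 329 WT and 5205 KO AT2-like cells had 5 of the genes, which allows shares of up to 0.912% and 0.0576% at 3 cells of the total, with exact upper limits of 1.11% and 0.0708%. In AT1-like cells 95.2% and 92.4% had 5 or more, and the lowest AT1-like cells, with 3 genes in WT and 1 in KO, were within the AT2-like range, which reached 4 genes in both libraries.

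**Figure D4:**
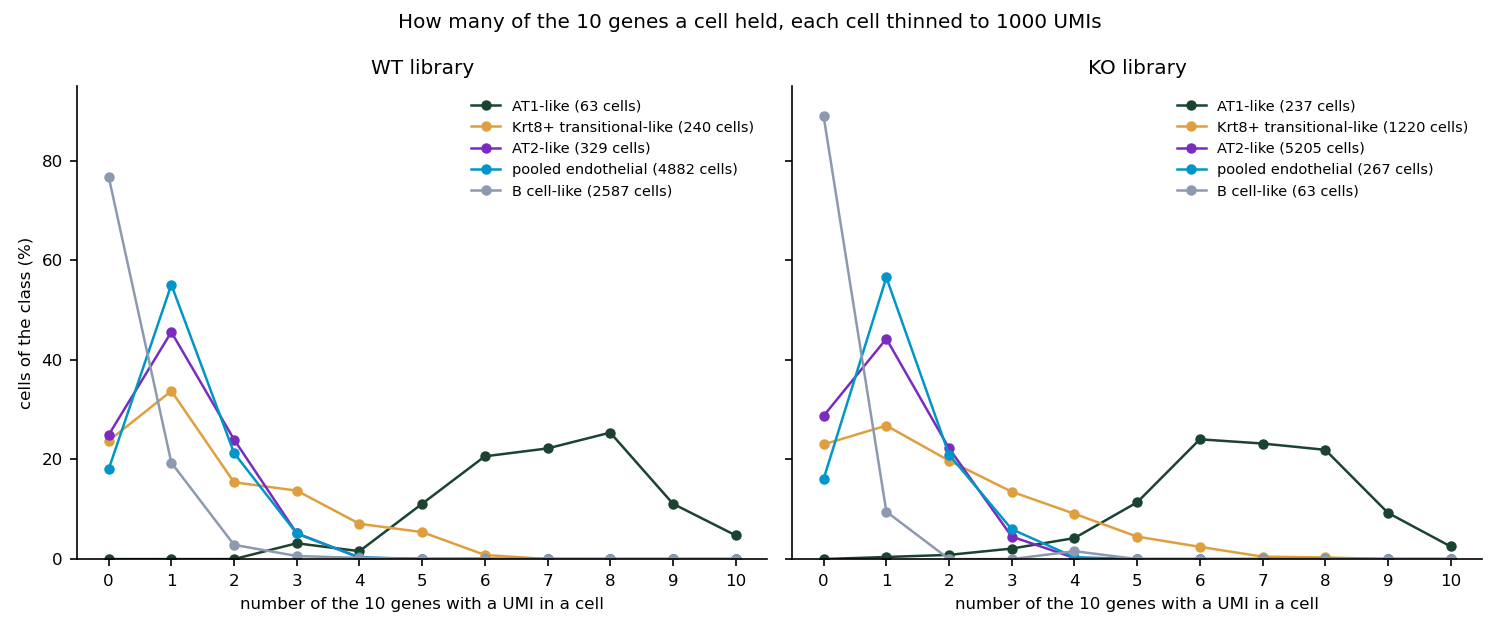
Lines give the percentage of cells of a class (y axis) that had a UMI of 0 to 10 of the genes (x axis), each cell thinned to 1000 UMIs, in the WT and KO library. AT1-like cells peak at 6 to 8 genes, AT2-like and endothelial cells at 1, and Krt8+ transitional-like cells peak at 1 with a tail that reaches 6 genes in WT and 8 in KO.

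The proportions of the genes to one another also differed between classes. For each 100 Ager UMIs, AT1-like cells held 36.3 Hopx UMIs in WT and 31.4 in KO, whereas AT2-like cells held 5.51 and 3.13. For Rtkn2 the values were 14.8 and 13.5 in AT1-like and 0.453 and 0.427 in AT2-like cells. Aqp5 went the other way, at 12.5 and 13.9 per 100 Ager UMIs in AT1-like cells and 35.4 and 40.2 in AT2-like cells. In B cell-like cells of the WT library Hopx was at 189 and Cav1 at 186 per 100 Ager UMIs. Transitional-like cells were between the alveolar classes for Hopx, at 26.4 and 18.7. For Aqp5 they were near AT2-like cells in WT, at 35.2, and between the alveolar classes in KO, at 30.8 (29.8 to 31.8).

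The AT1-like class itself consisted of a cluster with more UMIs per cell, 36 WT and 170 KO cells with medians of 4718 and 6543, and a cluster with fewer, 62 and 87 cells with medians of 913 and 1667. Ager, Emp2, Pdpn and Akap5 were alike in both, with log2 ratios of the deeper over the shallower cluster between -0.18 and 0.31 in WT and between -0.14 and 0.24 in KO. Rtkn2 was higher in the deeper cluster by log2 1.24 (0.86 to 1.65) in WT and 1.68 (1.42 to 1.95) in KO. Scel was higher there by log2 2.33 (1.15 to 3.82) and 3.65 (2.60 to 4.97), on 6 and 7 UMIs in the shallower cluster. The order of the other classes rested on the whole AT1-like class, and with the deeper cluster alone the number of AT1-restricted genes stayed within 1.5 times of 6 in each library.

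Of the clusters left without a class, 2 are described, chosen after their values were seen. A cluster of 301 WT and 445 KO cells, with medians of 675 and 981 UMIs, was led by haemoglobin genes. It was among the clusters taken out of the epithelium for carrying markers of other cells. Its best match was the Krt8+ transitional marker list, with 8 of 10 markers raised and summed levels of 5316 and 7413 CPM. In WT its AT1 markers summed to 3711 CPM and its endothelial markers to 825, against 3053 and 237 in transitional-like cells. In KO the sums were 1655 and 110 CPM, against 2637 and 89.3. It had Ager at 2807 and 3383 CPM, Hopx at 2175 and 988, Emp2 at 1502 and 814, and Scel at 82.5 and 30.4. Akap5 was at 632 CPM in WT and 320 in KO. AT1-like cells held Akap5 at 918 CPM in WT and 1026 in KO, and Hopx at 4524 CPM in WT. All 3 levels were less than 4-fold above those of this cluster. A further cluster of 64 WT and 864 KO cells carried AT2 markers and was led by Slc26a4, an anion exchanger, and Sftpd, which encodes surfactant protein D. Its Ager level was 1330 and 1422 CPM, above the 765 and 796 CPM of AT2-like cells, while Hopx, at 60.1 and 47.6 CPM, was far below transitional-like cells. Activated AT2-like cells had Ager at 995 and 1091 CPM, Emp2 at 227 and 172, and Scel and Spock2 at 0 or under 1 CPM. The WT class held only 70368 UMIs, and 0 of them were of Scel or Spock2. With 3 UMIs as the floor, these WT values of 0 do not show a low level. The 187 cycling epithelial-like cells of the KO library had Rtkn2 at 29.1 CPM and Pdpn at 29.1 CPM, both above AT2-like cells at 3.40 and 4.16.

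Between the libraries, none of the 10 genes differed 2-fold in AT1-like cells, where 6.22% of genes were lower and 11.4% higher in KO by that measure. The log2 ratios, KO over WT, ran from -0.42 (-0.60 to -0.24) for Spock2 to 0.51 (0.35 to 0.67) for Aqp5. Ager, at 0.36 (0.30 to 0.41), was on the higher side, and Cav1, at -0.33 (-0.51 to -0.16), on the lower. The median was 0.15, against 0.05 over all genes. Rtkn2 at 0.22, Emp2 at -0.15, Akap5 at 0.16 and Scel at 0.37 changed sign under at least 1 other way of filtering or clustering the cells. The deeper and shallower AT1-like clusters were present in different shares. Within each of them the WT and KO intervals of Rtkn2 and of Scel overlapped, so no direction is read there. Rtkn2 was at 2195 CPM (1982 to 2424) in WT and 2365 (2277 to 2456) in KO in the deeper cluster. In the shallower it was at 928 (713 to 1187) and 737 (614 to 877). Scel was at 446 (353 to 556) and 510 CPM (470 to 553) in the deeper cluster. In the shallower it was at 88.4 (32.4 to 192) and 40.6 (16.3 to 83.7), on 6 and 7 UMIs. The part of the cluster shares in these 2 ratios was not tested.

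In transitional-like cells the ratios ran from -0.79 (-1.20 to -0.37) for Scel to 0.68 (0.61 to 0.76) for Ager, again with none at 2-fold, where 6.42% of genes were lower and 7.35% higher. Aqp5 was at 0.49 (0.36 to 0.62) and Akap5 at 0.01 (-0.19 to 0.22). Of the 10 ratios, those of Ager, Aqp5 and Cav1 kept their sign under every alternative run, and the other 7 changed sign under at least 1, among them Hopx at 0.19, Emp2 at 0.18 and Scel. The range over settings was wider than the counting interval for several of these ratios, which are given as values of 2 libraries.

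In AT2-like cells 1 gene was 2-fold lower in KO, where 7.78% of genes were, and none 2-fold higher, where 5.23% were. This was Cav1, at log2 -1.49 (-2.05 to -0.88), from 29 WT UMIs at 16.7 CPM and 228 KO UMIs at 5.97 CPM. Hopx was at -0.76 (-1.10 to -0.39). Neither was on in AT2-like cells by the share of cells, with the limit given above. The summed endothelial markers in AT2-like cells were likewise 180 CPM in WT and 102 CPM in KO, in libraries with 16.9% and 1.80% endothelial cells. The part of these cells in the Cav1 and Hopx values was not tested. Ager, at 0.06 (-0.02 to 0.14), and Emp2, at -0.05 (-0.18 to 0.09), which were on in AT2-like cells, had ratios near 0, and Aqp5 was at 0.24 (0.11 to 0.38). With the gene limits read as UMI limits, Aqp5 turned to -0.16 and Ager to -0.26.

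In the endothelial pool Cav1 and Hopx were equal between the libraries within counting error, at log2 0.05 (-0.03 to 0.12) and 0.03 (-0.18 to 0.23). Ager was higher in KO by log2 1.42 (1.03 to 1.79) and Aqp5 by 1.93 (0.93 to 2.82), at 70.3 and 13.2 CPM in KO. The 11 AT2 markers summed to 342 CPM in WT and 3135 CPM in KO endothelial cells, in libraries with 1.10% and 33.3% AT2-like cells. The Ager share of KO endothelial cells, 3.75%, lay under the 4.76% of 63 KO B cell-like cells, so Ager was not called on there. Its thinned UMIs were unevenly spread over these 267 endothelial cells, with up to 10 in a cell and a variance 5.69 times the mean. The source of the Ager and Aqp5 counts was not tested.

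**Figure D5:**
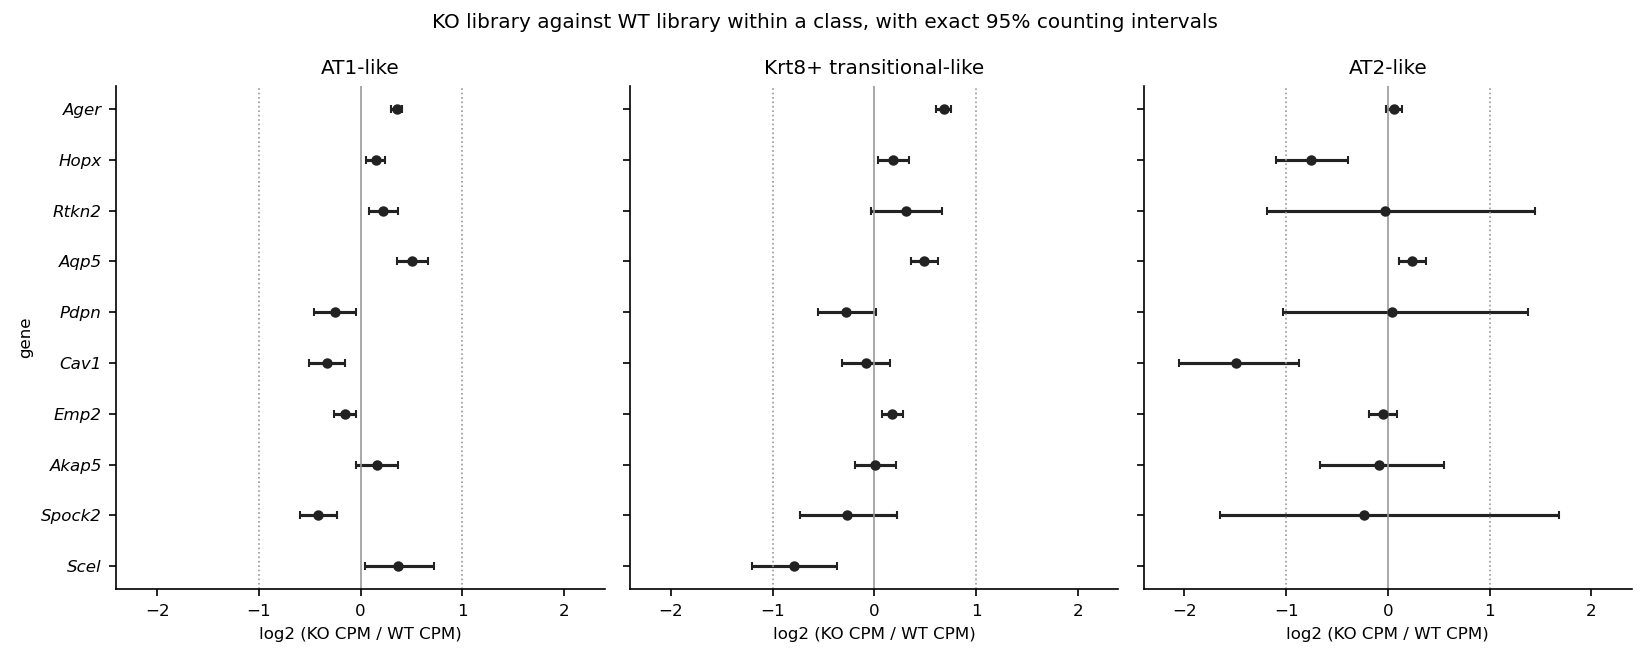
Points compare the libraries as log2 of KO CPM divided by WT CPM for each gene in AT1-like, Krt8+ transitional-like and AT2-like cells, with exact 95% counting intervals, and dotted lines mark 2-fold. All points lie within 2-fold except Cav1 in AT2-like cells at -1.49, and Scel is not drawn there because the WT class had 0 UMIs.

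In a list of 10 further AT1 genes, all 10 were at least 2-fold higher in AT1-like than in AT2-like cells in both libraries, with a median log2 ratio of 4.82 in WT and 4.90 in KO, and 7 of 10 were 2-fold higher in transitional-like cells. Over all genes the shares were 25% in WT and 27.9% in KO for AT1-like cells, and 30.2% and 39% for transitional-like cells. Of the 10 further AT1 genes, Ndnf and Sema3a met the rule for AT1-restricted genes. Sema3a, a secreted guidance factor, was at log2 9.11 and 8.64, and Cldn18, a tight junction protein, at 2.15 and 2.11. Among 7 transcription regulators of alveolar cells, 3 in WT and 4 in KO were 2-fold higher in AT1-like than in AT2-like cells, against the same 25% and 27.9%. Tead1, the partner of Yap1 and Wwtr1, was at log2 3.26 and 3.23, whereas Nkx2-1, a lung lineage factor, was at -0.61 and -0.22. Tead1 also met the AT1-restricted rule in KO, at 4.65-fold, but not in WT, at 2.77-fold.

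The genes whose levels were most like those of each member over the 42 pairs of class and library were named by Pearson's r of log2(CPM + 10) among 13244 genes, as a description, since classes of a library share its cells and depth. The gene nearest to Ager was Aqp5 (r = 0.926), followed by Cldn18 and Gprc5a. For Aqp5, Ager came after Pof1b and Mal2. Gprc5a, and Clic5 given below for Hopx, were among the markers used to name the AT1-like class. Rtkn2 and Akap5 were a pair (r = 0.937), with AC133498.1 nearest or next to both. Spock2 and Scel were another (r = 0.910), with Bdnf and Sh3rf2 near both. Cav1 had no member among its nearest genes, which were Lims2, Cavin2 and Cavin1, the last 2 encoding further caveolar proteins (r = 0.928, 0.915 and 0.899). Hopx was nearest to Cdkn2b, Clic5 and AC133498.1 (r = 0.774 to 0.819), Pdpn to Fmn1, Fam20c and Lrpap1 (0.778 to 0.827), and Emp2 to Nectin3, Tmem63b and Fgf1 (0.826 to 0.883).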

How the data were processed

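The deposited files hold, for each of the 2 libraries, counts of UMIs per gene and barcode, raw and not normalized. The authors used a 10x Genomics 3' v3.1 kit, the submitters' processing notes name Cell Ranger 3.1.0, STAR and the GRCm38 (mm10) assembly, and the matrix headers name Cell Ranger 5.0.0. Depth per library is given with the results. No column was left unmapped.

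Barcodes were retained if they had between 200 and 5000 genes and less than 20% of their UMIs from mitochondrial genes. Cells were clustered with R 4.3.3 and Seurat 5.3.0 (log-normalization to 10000, 2000 variable genes without the 10 genes, 10 principal components, 20 neighbors, resolution 0.8). To balance the libraries, 1 in 6 KO cells was clustered and the others took the most frequent cluster of their 20 nearest clustered cells. Of the AT1-like KO cells, 42 were clustered directly. A cluster was named from a fixed marker list with at least 3 markers. The epithelium was reclustered in 3 rounds to take out clusters that carried markers of other cells, which removed 938 WT and 712 KO cells. Clusters were removed in the same way from the endothelial, mesenchymal and immune cells, among them 1 of 793 WT and 58 KO cells from the endothelium. A further 9541 WT and 2194 KO cells stayed unnamed, among them 529 and 31 endothelial cells that were kept in the endothelial pool. Doublets were kept in the main values, and Scrublet, run in scanpy 1.11.5, called 7.76% of WT and 2.70% of KO cells. The shares expected from the numbers of cells were higher, at 24.1% and 12.5%.

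UMIs were summed over the cells of a class and given per 1000000 UMIs of that class (CPM), with exact Poisson intervals, exact conditional intervals for ratios and exact binomial (Clopper-Pearson) intervals for shares, at 95%. A count of 0 was read as up to 3 UMIs or cells. Shares used cells with at least 1000 UMIs, thinned to 1000, which left 63 of 98 WT and 237 of 257 KO AT1-like cells, 240 of 241 and 1220 of 1237 transitional-like, 329 of 331 and 5205 of 5213 AT2-like, and 4882 of 5111 and 267 of 282 endothelial cells. The ratios with their intervals were tested on simulated Poisson counts, and the thinning on the KO Ager share against the share expected of the draw. Poisson counts are what these intervals assume, so the test does not cover genes whose counts vary more between cells. Counts of 3' ends are not compared between genes. No test was possible, since there was 1 library per genotype. The 10 genes, the marker and gene lists and the rules were chosen with earlier results of these data known, and the 3 nearest genes were named for every member. Genes were placed with GENCODE vM21, all 10 matched by identifier. Alternatives are given in the closing section.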

Additional observations from a re-analysis of the deposited data

How the results depend on the processing

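Counts of the genes in each kind of pattern, ratios and shares were recomputed under 13 other choices of filters, doublets, clustering, scaling and thinning, and with the deeper AT1-like cluster alone, which was chosen after seeing the data. Of 144 recomputed counts, 142 were within 1.5 times of the value reported, with 5 to 7 AT1-restricted genes in WT and 6 to 8 in KO. The exceptions were the genes on in KO transitional-like cells, 6 as reported, 3 with cells thinned to 500 UMIs and 10 without thinning. Of 1320 recomputed log2 ratios, 932 stayed within their counting interval, 377 moved beyond it, and 11 whose interval had excluded 0 changed sign.

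All 11 were ratios under 1 in size, and 10 of them compared the libraries. With the limits of 200 and 5000 read as UMIs, KO over WT was -0.021 for Rtkn2 in AT1-like cells, -0.63 for Hopx and -0.28 for Emp2 in transitional-like cells and -0.16 for Aqp5 in AT2-like cells. Without an upper limit on genes, Hopx in transitional-like cells was at -0.14. With all KO cells clustered, Emp2 was at 0.0099 and Scel at -0.21 in AT1-like cells, and Hopx at -0.25 in transitional-like cells. With the 10 genes kept among the variable genes, Scel was at -0.22 in AT1-like and 0.19 in transitional-like cells, and Ager in WT transitional-like over AT2-like cells was at -0.021. The cause was not tested. AT1-like cells numbered 32 to 112 in WT and 151 to 389 in KO over the settings, and this number limits the precision of every AT1-like value. No paired analysis was possible because each genotype had 1 library.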
